A study of Mus musculus with 6 samples.

Results

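Respiratory complexes II to V carry electrons from succinate and ubiquinol to oxygen and use the resulting proton gradient to make ATP. The rows of the table were taken by gene symbol: the succinate dehydrogenase genes Sdha to Sdhd (complex II), Uqcr genes, Cyc1 and mt-Cytb (complex III), Cycs (cytochrome c), Cox4 to Cox8 genes and mt-Co genes (complex IV), and Atp5 and mt-Atp genes (complex V, the ATP synthase). This gave 54 of 19832 rows, 48 from nuclear genes and 6 from mitochondrial DNA (mtDNA), with 53 different symbols because Atp5o is listed under 2 gene IDs. The cells were EO771, a mouse mammary tumour line, and all libraries came from this single line. In the LCN2 group (n = 3) recombinant LCN2 protein had been added, and the control group (n = 3) had no LCN2 treatment. LCN2 (lipocalin-2) is released by cells and captures siderophores, the small molecules with which bacteria collect iron. The series concerns LCN2-positive mast cells, cancer stemness and a peptide of mitochondrial origin, and the comparison asks how the tumour cells' transcripts differ with LCN2. The labels name no dose and no exposure time, and nothing in them tells whether the replicates were grown separately. The p-values therefore reflect only how far these samples scatter, which may be technical.

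Complex II, the enzyme that oxidises succinate in the citrate cycle, is made entirely from nuclear genes. Complexes III, IV and V are mosaics: mtDNA encodes a few membrane-embedded core subunits, and nuclear genes encode the rest, which are imported and assembled around that core. Several complex IV and V subunits have alternative nuclear genes used in different tissues, and tumour lines differ widely in how much they rely on this pathway.

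The values are FPKM (fragments counted per gene, divided by transcript length and sequencing depth), a unit inferred from the values themselves. Column sums lay between 391569 and 393735 in LCN2 libraries and between 395915 and 410808 in controls, but how many reads lie behind each library is unknown. The test was limma on log2(FPKM + 1) after TMM scaling (a trimmed mean of the ratios between libraries). It took genes averaging 1 FPKM or more, and a call is a Benjamini-Hochberg adjusted p under 0.05 over all 10309 tested genes. In a principal component analysis of all tested genes, LCN2 replicate 2 scored 4.34 on the leading component, against 15.7 and 16.5 for the other LCN2 libraries and -17.3 to -8.09 for the controls. Of 8 listed markers of mammary epithelium 7 were in the table and 6 averaged at least 1 FPKM, Epcam and Krt8 among them. The summed level of these 7 was 1292 to 1308 FPKM in LCN2 libraries and 1333 to 1404 FPKM in controls, without overlap. Among all tested genes, 42.7% did not overlap as deposited. Of the 7 markers 4 were called, where 21.5% of all tested genes were. Among 5 mast cell markers, 4 were at 0 in every library, and of 4 endothelial markers none reached 1 FPKM. Of 4 leukocyte markers Cd68 alone reached 1 FPKM, and none was called. Their sums were 9.76 to 10.5 FPKM in LCN2 libraries and 9.11 to 11.1 FPKM in controls. Among 4 fibroblast markers, 1 (Pdgfrb) was at 0 throughout, Dcn and Pdgfra reached 1 FPKM, and 1 was called. The fibroblast sums were 581 to 612 FPKM in LCN2 libraries and 489 to 545 FPKM in controls. The part of the epithelial and fibroblast differences in the results below was not tested. In bulk RNA, fewer cells expressing a gene and less RNA per cell cannot be told apart.

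Most subunit mRNAs of complexes II to V differed little between LCN2-treated and control cells. Of 54 members 49 passed the filter on low values, and of these 8 changed, 4 higher (Sdhb, Uqcrq, mt-Cytb and Cox7a2l) and 4 lower (Sdha, Cox7a2, Atp5c1 and Atp5g1). That is 16.3% of the tested members, where 21.5% of all tested genes were called, 11.8% higher and 9.73% lower. The median log2 fold change (LCN2 minus control) was -0.0057 over the tested members and 0.0008 over all tested genes. Its median size was 0.071 over the members and 0.13 over all tested genes. In 42 of 49 members the log2 fold change was smaller than 0.2 in size, and it reached that size in 7 members (14.3%), against 29.9% of all tested genes. At an unadjusted p under 0.05 there were 14 members (28.6%), 5 higher and 9 lower, against 39.1% of all tested genes, 20.3% higher and 18.8% lower. The groups did not overlap in scaled FPKM in 18 of 49 members, where 44.5% of all tested genes did not overlap. LCN2 replicate 2 was the LCN2 library nearest to the control mean for 6 of the 8 called members. The number of called members was 12 without that library, where 30.7% of all tested genes were called. Dropping control replicate 1 gave 3 called members (6.19% of all tested genes), and dropping control replicate 2 gave 7 (17.4%). Only Cox7a2 stayed called when control replicate 3 (4.49% of all tested genes), LCN2 replicate 1 (2.6%) or LCN2 replicate 3 (4.63%) was dropped. The fits with few called members thus also had few calls among all tested genes.

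**Figure D1:**
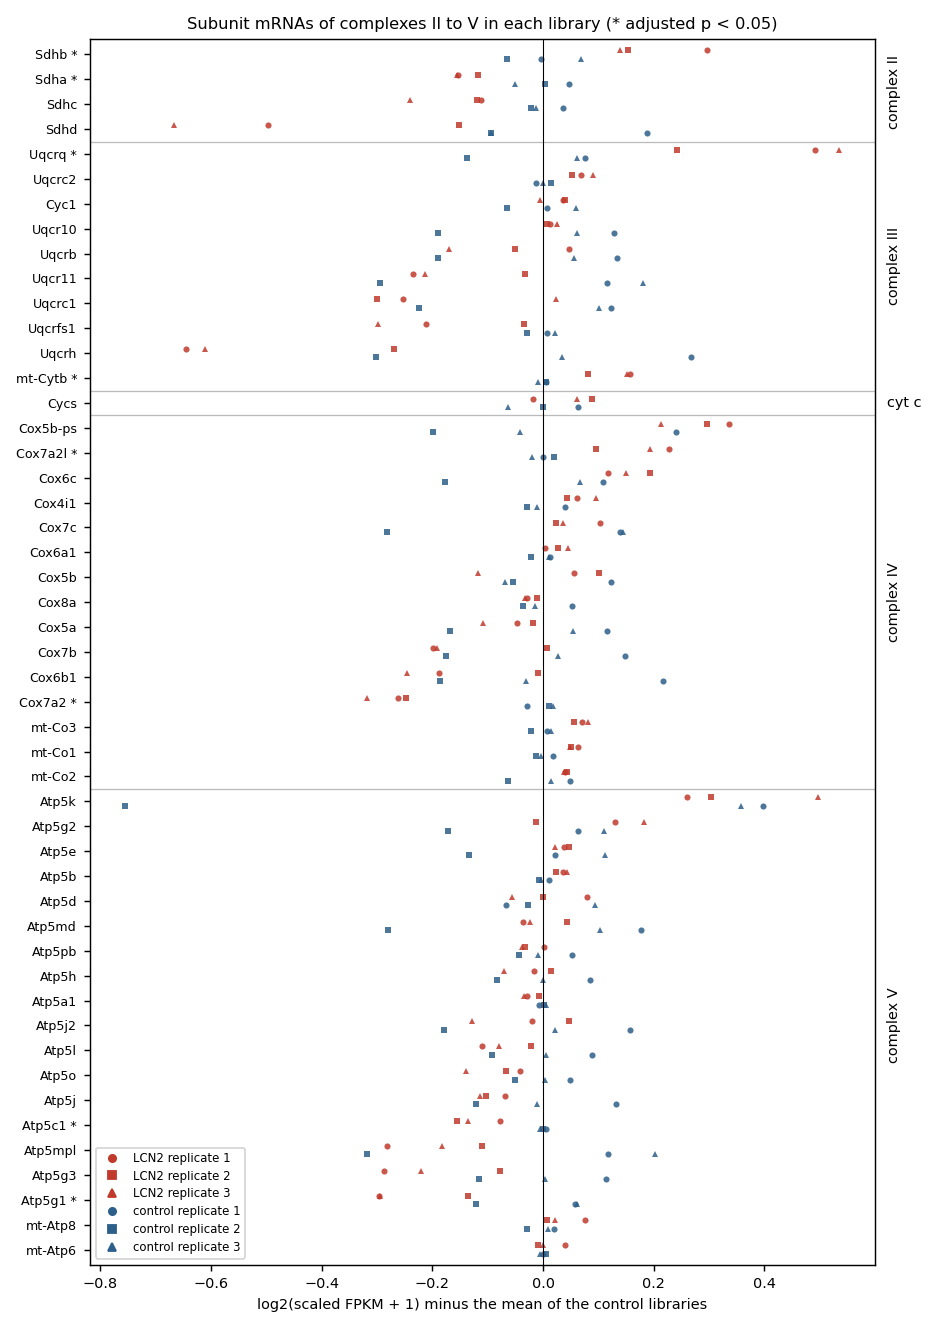
Each row is a tested member and each point a library, placed by its log2(scaled FPKM + 1) minus the mean of the 3 control libraries, with LCN2 libraries in red and controls in blue. Asterisks mark the 8 called members. Most points lie close to 0, Uqcrq lies to the right and Uqcrh and Sdhd to the left in LCN2 libraries, and control replicate 2 (blue squares) lies far to the left for several small subunits, Atp5k most of all.

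Promoters are shown for 5 nuclear members, Sdha and Sdhb because they were called in opposite directions within complex II, Cox7a2 and Atp5g1 because they were called lower, and Uqcrh because it had the lowest log2 fold change of the members. They are the 250 bases before the first start that RefSeq lists, 5′ to 3′ on the gene's strand, on GRCm38.p6, and 33 of the 43 tested nuclear members had an entry there. The positions are chr13:74350241-74350490 on the minus strand for Sdha, chr4:140961021-140961270 on the plus strand for Sdhb, chr4:116075071-116075320 on the minus strand for Uqcrh, chr9:79759854-79760103 on the minus strand for Cox7a2 and chr11:96075632-96075881 on the minus strand for Atp5g1. GENCODE places the starts of these genes further upstream, so that the last 40 bases of the Sdha window, 68 of Sdhb, 1 of Uqcrh, 25 of Cox7a2 and 39 of Atp5g1 lie inside the gene as its coordinates are given here. Capitals mark exact matches, on either strand, to CCAAT or to the ETS motif CCGGAAG, which GABPA (NRF2), a known activator of respiratory genes, can bind.
Sdha: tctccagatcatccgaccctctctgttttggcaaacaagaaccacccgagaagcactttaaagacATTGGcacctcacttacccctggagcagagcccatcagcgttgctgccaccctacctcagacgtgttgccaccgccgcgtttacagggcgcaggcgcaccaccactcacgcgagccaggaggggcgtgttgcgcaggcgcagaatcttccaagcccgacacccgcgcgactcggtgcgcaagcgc
Sdhb: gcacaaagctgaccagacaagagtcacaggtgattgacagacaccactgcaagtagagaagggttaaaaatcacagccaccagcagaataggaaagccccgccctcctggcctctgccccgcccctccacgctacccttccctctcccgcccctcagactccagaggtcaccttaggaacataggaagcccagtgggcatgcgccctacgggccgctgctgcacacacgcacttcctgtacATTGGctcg
Uqcrh: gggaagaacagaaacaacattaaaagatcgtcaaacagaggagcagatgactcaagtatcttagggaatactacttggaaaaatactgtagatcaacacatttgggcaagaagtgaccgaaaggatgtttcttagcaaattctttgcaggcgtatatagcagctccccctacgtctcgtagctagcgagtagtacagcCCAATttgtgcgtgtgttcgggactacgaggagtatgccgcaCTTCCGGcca
Cox7a2: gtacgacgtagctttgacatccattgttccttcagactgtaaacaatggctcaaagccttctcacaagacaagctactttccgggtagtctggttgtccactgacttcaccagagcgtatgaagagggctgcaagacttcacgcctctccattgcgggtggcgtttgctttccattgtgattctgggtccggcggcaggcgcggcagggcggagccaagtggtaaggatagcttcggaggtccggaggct
Atp5g1: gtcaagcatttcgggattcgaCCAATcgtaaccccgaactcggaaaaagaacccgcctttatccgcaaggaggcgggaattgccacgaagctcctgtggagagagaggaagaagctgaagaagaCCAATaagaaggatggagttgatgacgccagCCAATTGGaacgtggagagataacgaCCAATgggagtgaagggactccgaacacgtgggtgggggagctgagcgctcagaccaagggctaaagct
The Sdha and Sdhb windows each hold 1 CCAAT match, on the opposite strand, and that of Sdhb lies in the part inside the gene. The Cox7a2 window holds 0 matches. The window of Cox7a2l, also called, holds 0 and is not shown because all of its 250 bases lie inside the gene, and Uqcrq is not among the 33. The window of Atp5c1, which holds CCAAT, is not shown either. The Uqcrh window holds 1 CCAAT and 1 ETS match, and the Atp5g1 window holds 5 CCAAT matches, of which 2 on opposite strands overlap. Among all 33 member promoters 18 (54.5%) held CCAAT, against 34.5% of 27025 promoters of the same length. CCGGAAG was found in 8 (24.2%), against 7.05%. The palindromic core motif of NRF1, searched in a single exact form, was found in 3 (9.09%), those of Atp5g2, Atp5k and Cox6a1, against 0.781%. The YY1 motif AAGATGGCG was found in 0 of the 33 windows and in 0.607% of all. These are matches of letters in a fixed window and show no binding.

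In complex II the catalytic subunits moved in opposite directions. Sdha (chromosome 13, 74322254 to 74350280, GRCm38), the flavoprotein that oxidises succinate, had 86.8, 90.4 and 86.3 FPKM in LCN2 cells, against 103, 106 and 96.1 FPKM in controls. All LCN2 libraries lay below all controls (87.8 ± 2.21 FPKM in LCN2 cells and 101 ± 4.87 FPKM in controls, SD, n = 3 each), a log2 fold change of -0.14 (SE 0.04, adjusted p = 0.042). Sdhb (chromosome 4, 140961203 to 140979193), the iron-sulphur subunit that receives electrons from Sdha, had 47.4, 43.5 and 42.2 FPKM in LCN2 cells, against 39.3, 40.0 and 41.5 FPKM in controls. Here the LCN2 libraries lay above the controls, with LCN2 replicate 3 close to control replicate 3, and the log2 fold change was 0.20 (SE 0.06, adjusted p = 0.049). Within each library Sdhb made up 35.3%, 32.5% and 32.8% of the summed FPKM of Sdha and Sdhb in LCN2 cells, against 27.7%, 27.5% and 30.2% in controls. A scaling factor per library cannot alter this share. But the pair joins genes called in opposite directions in the same values, so the share adds no support to either call. The membrane anchors did not pass the test. Sdhd (chromosome 9, 50596357 to 50603812), one of these anchors, had 48.8, 63.2 and 43.1 FPKM in LCN2 cells and 81.2, 70.7 and 66.8 FPKM in controls. The groups did not overlap, but both spread widely (log2 fold change -0.44, SE 0.13, adjusted p = 0.054). Sdhc, the other anchor, had 29.7, 29.9 and 27.0 FPKM in LCN2 cells and 33.9, 34.5 and 32.8 FPKM in controls (log2 fold change -0.16, adjusted p = 0.060). Sdhb was also the only complex II gene whose log2 fold change was above 0. The calls of Sdha and Sdhb were lost whichever single library was left out, LCN2 replicate 2 excepted (highest adjusted p 0.14 and 0.15), and that of Sdhb also under the other 4 scalings (adjusted p between 0.051 and 0.12). Without LCN2 replicate 2 all 4 complex II genes were called, Sdhd with an adjusted p of 0.0084 and Sdhc with 0.049. In that fit 30.7% of all tested genes were called.

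Complex III passes electrons from ubiquinol to cytochrome c. Of its 10 members, all tested, 2 rose and 0 fell in limma (20%, against 21.5% of all tested genes). At an unadjusted p under 0.05 there were 2 higher and 2 lower, a share close to the 39.1% of all tested genes. The largest log2 fold change of a called member was in Uqcrq (chromosome 11, 53427922 to 53430831), a small membrane subunit that lies close to cytochrome b. It had 112, 95.4 and 115 FPKM in LCN2 cells, against 86.0, 78.6 and 85.3 FPKM in controls. Every LCN2 library was above every control, with replicate 2 the lowest of the LCN2 libraries (107 ± 10.5 FPKM in LCN2 cells and 83.3 ± 4.08 FPKM in controls, n = 3 each), and the log2 fold change was 0.42 (SE 0.09, adjusted p = 0.020). The call held under each scaling tried and was lost without control replicate 3 (adjusted p = 0.058), LCN2 replicate 1 (0.080) or LCN2 replicate 3 (0.074). Uqcrh (chromosome 4, 116066965 to 116075071), the acidic hinge protein that helps dock cytochrome c1 to cytochrome c, had 95.5, 126 and 97.4 FPKM in LCN2 cells and 185, 132 and 158 FPKM in controls. LCN2 replicate 2 and control replicate 2 nearly met, and after scaling the groups overlapped. Its log2 fold change of -0.51 (SE 0.15) was the lowest of the members but did not pass (adjusted p = 0.051). It passed without control replicate 2 (-0.66, adjusted p = 0.023), without LCN2 replicate 2 (-0.63, adjusted p = 0.024) and under the other 4 scalings (adjusted p between 0.0197 and 0.0485). Uqcrq made up 54.0%, 43.1% and 54.1% of the summed FPKM of Uqcrq and Uqcrh in LCN2 libraries, against 31.7%, 37.3% and 35.04% in controls. Uqcrh and Sdhd, with the lowest log2 fold changes of the members, were chosen for description after their values were seen, as were the pairs of genes whose shares are given.

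The other nuclear complex III genes did not pass. The Rieske iron-sulphur protein gene Uqcrfs1, also named after its values were seen, had 70.7, 81.1 and 66.1 FPKM in LCN2 cells and 84.6, 87.6 and 85.6 FPKM in controls (log2 fold change -0.18, adjusted p = 0.087, and adjusted p = 0.0077 without LCN2 replicate 2). The core gene Uqcrc1 averaged 50.5 ± 6.03 FPKM in LCN2 cells and 59.7 ± 5.96 FPKM in controls, and its partner Uqcrc2 88.7 ± 0.472 FPKM in LCN2 cells and 88.4 ± 3.79 FPKM in controls. Cytochrome c1 (Cyc1) averaged 63.5 ± 1.65 FPKM in LCN2 cells and 65.3 ± 1.37 FPKM in controls. The small subunits Uqcr10, Uqcr11 and Uqcrb had log2 fold changes of 0.01, -0.16 and -0.06. Cytochrome c itself (Cycs), the soluble carrier between complexes III and IV, had 56.0, 61.2 and 58.9 FPKM in LCN2 cells and 60.9, 61.8 and 55.8 FPKM in controls, and these ranges overlapped (log2 fold change 0.04, SE 0.05, adjusted p = 0.55).

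The mtDNA gene of complex III, mt-Cytb (chromosome M, 14145 to 15288), encodes cytochrome b, which holds both ubiquinone sites. It had 2584, 2486 and 2561 FPKM in LCN2 libraries and 2387, 2534 and 2369 FPKM in controls. The deposited values overlapped through control replicate 2, whereas after scaling the LCN2 libraries were all above the controls, and mt-Cytb was called higher (log2 fold change 0.13, SE 0.03, adjusted p = 0.033). The call was lost with values as deposited (0.07, adjusted p = 0.22), and after quantile normalization (adjusted p = 0.39). When single libraries were left out, it held only without control replicate 2 or LCN2 replicate 2, and the adjusted p otherwise reached 0.14.

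**Figure D2:**
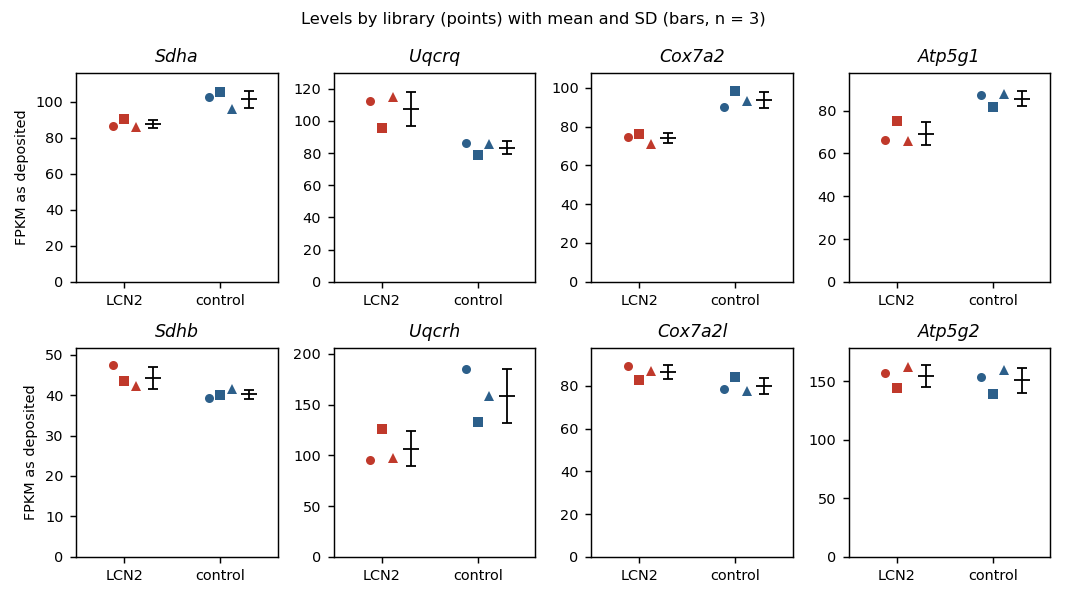
FPKM as deposited (vertical axes from 0) in each library for 8 nuclear members, LCN2 in red at the left and control in blue at the right of each panel, with the mean and SD beside the points (n = 3). Sdhb, Uqcrq and Cox7a2l are higher and Sdha, Uqcrh, Cox7a2 and Atp5g1 lower in most or all LCN2 libraries, while Atp5g2 averages 154 FPKM in LCN2 and 151 FPKM in control cells.

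Complex IV, cytochrome c oxidase, reduces oxygen to water. Of its 19 members 15 were tested, of which 1 rose and 1 fell (13.3%, against 21.5% of all tested genes). At an unadjusted p under 0.05 there were 2 higher and 1 lower (20%, against 39.1% of all tested genes). Cox7a2 (chromosome 9, 79755361 to 79759878), the widely expressed form of subunit VIIa, had 74.4, 76.2 and 71.1 FPKM in LCN2 cells, against 89.97, 98.1 and 93.2 FPKM in controls. The groups were well apart (73.9 ± 2.55 FPKM in LCN2 cells and 93.8 ± 4.12 FPKM in controls, n = 3 each), and the log2 fold change was -0.28 (SE 0.04, adjusted p = 0.0069). Cox7a2 was the one member called in all 6 fits that left out a library (adjusted p of up to 0.043), and it was called under each scaling. Cox7a2l (chromosome 17, 83501918 to 83517330), whose product resembles subunit VIIa, had 89.4, 82.8 and 86.9 FPKM in LCN2 cells, against 78.3, 84.3 and 77.5 FPKM in controls. LCN2 replicate 2 was below control replicate 2 as deposited and above it after scaling (log2 fold change 0.17, SE 0.04, adjusted p = 0.034). That call was lost with values as deposited (adjusted p = 0.17), equal column sums (0.057) and quantile normalization (0.053). It was also lost on leaving out any library but LCN2 replicate 2, with adjusted p as high as 0.125. Cox7a2l made up 54.6%, 52.1% and 55.0% of the summed FPKM of Cox7a2 and Cox7a2l in LCN2 libraries, against 46.5%, 46.2% and 45.4% in controls, with no overlap. This pair joins a gene called lower with a gene called higher, so the share adds no support to either call.

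The tissue-specific forms of complex IV subunits were at or near 0. Cox4i2, a form of subunit IV known from lung and from low oxygen, had between 0.0453 and 0.149 FPKM in LCN2 libraries and between 0.136 and 0.225 FPKM in controls, and Cox4i1, the general form, had 545, 546 and 555 FPKM in LCN2 cells and 551, 558 and 533 FPKM in controls. Cox7a1, the heart and muscle form of subunit VIIa, had 0.988, 0.623 and 0.345 FPKM in LCN2 cells and 0.937, 0.782 and 1.92 FPKM in controls, at most 2.02% of the summed FPKM of Cox7a1 and Cox7a2 in any library. Cox8b, a muscle form, and Cox8c, a testis form, were listed at 0 in every library, whereas Cox8a averaged 284 ± 5.01 FPKM in LCN2 cells and 302 ± 7.45 FPKM in controls. The second forms of Cox6a1, Cox6b1 and Cox7b were not analysed here, and none of these 3 genes was called (log2 fold changes 0.03, -0.15 and -0.13). Among the other nuclear subunits, Cox6c (0.15), Cox7c (0.05), Cox5a (-0.06) and Cox5b (0.01), given as log2 fold changes, were not called. The row named Cox5b-ps, which GENCODE lists as Gm11273 and which is nearly identical to Cox5b, had 23.3 to 25.6 FPKM in LCN2 libraries and 18.9 to 24.5 FPKM in controls, and reads of the pair may not be separable.

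The mtDNA genes of complex IV encode its catalytic core. mt-Co1 (chromosome M, 5328 to 6872), which holds the oxygen-reducing site, was the most abundant member in every library and had 8414, 8461 and 8289 FPKM in LCN2 libraries and 8374, 8706 and 8271 FPKM in controls. mt-Co2, which accepts electrons from cytochrome c, had 3369, 3424 and 3346 FPKM in LCN2 libraries and 3480, 3418 and 3407 FPKM in controls. mt-Co3, the third core subunit, had 2458, 2465 and 2464 FPKM in LCN2 libraries and 2415, 2514 and 2432 FPKM in controls. The deposited values of all 3 genes overlapped between the groups, and none passed (log2 fold changes 0.05, 0.04 and 0.07, each with an SE of 0.03 to 0.04, adjusted p = 0.21, 0.45 and 0.13). The sign of these small differences depended on the scaling: with values as deposited mt-Co1 was at -0.01 and mt-Co2 at -0.02.

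Complex V, the ATP synthase, had 20 members, of which 19 were tested, with 0 rises and 2 falls in limma (10.5%, against 21.5% of all tested genes). At an unadjusted p under 0.05 there were 0 higher and 3 lower, where 39.1% of all tested genes passed. Atp5c1 (chromosome 2, 10056016 to 10080510) encodes the gamma subunit, the rotating shaft of the catalytic head. It had 137, 131 and 131 FPKM in LCN2 cells, against 149, 157 and 148 FPKM in controls, without overlap (133 ± 3.33 FPKM in LCN2 cells and 151 ± 5.20 FPKM in controls, n = 3 each; log2 fold change -0.12, SE 0.04, adjusted p = 0.047). The call held under each scaling but was lost whichever library was left out, control replicate 1, 2 or 3 or LCN2 replicate 1, 2 or 3 (adjusted p between 0.063 and 0.14). Atp5g1 (chromosome 11, 96068852 to 96075670) is a nuclear gene for the c subunit of the membrane ring. It had 66.3, 75.3 and 66.1 FPKM in LCN2 cells, against 87.4, 81.8 and 87.8 FPKM in controls, again without overlap (log2 fold change -0.24, SE 0.07, adjusted p = 0.041). That call held on leaving out control replicate 2 or LCN2 replicate 2 and was lost on leaving out any other library, where the adjusted p reached 0.14.

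The mature c subunit is the same protein from each of Atp5g1, Atp5g2 and Atp5g3. Atp5g3 had 228, 268 and 238 FPKM in LCN2 cells and 310, 281 and 288 FPKM in controls (log2 fold change -0.20, SE 0.07, adjusted p = 0.090), and Atp5g2 had 157, 144 and 162 FPKM in LCN2 cells and 154, 139 and 159 FPKM in controls (0.10, SE 0.08, adjusted p = 0.40). Atp5g3 was thus lower in each LCN2 library as deposited. After scaling its groups overlapped, with LCN2 replicate 2 at 271 FPKM and control replicate 2 at 264 FPKM. Atp5g2 overlapped both as deposited and after scaling. The share of Atp5g2 among the summed FPKM of the 3 genes was 34.8%, 29.6% and 34.7% in LCN2 libraries and 27.9%, 27.7% and 29.8% in controls, with LCN2 replicate 2 inside the range of the controls. No test was made of this share, since the genes were set side by side after their values were seen.

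The catalytic alpha and beta subunits were not called. Atp5b, the catalytic beta subunit, was the most abundant nuclear member, with 1077, 1083 and 1077 FPKM in LCN2 cells and 1088, 1140 and 1079 FPKM in controls (log2 fold change 0.03), whereas Atp5a1, the alpha subunit, averaged 163 ± 3.22 FPKM in LCN2 cells and 173 ± 6.13 FPKM in controls (-0.02). Of the remaining nuclear members of complex V that were tested, none passed. Their log2 fold changes were 0.01 (Atp5d), 0.04 (Atp5e), -0.02 (Atp5h), -0.09 (Atp5j), -0.03 (Atp5j2), -0.07 (Atp5l), -0.01 (Atp5md), -0.19 (Atp5mpl), -0.08 (Atp5o), -0.02 (Atp5pb) and 0.35 (Atp5k). Atp5k, a small membrane subunit, had 20.7, 21.6 and 24.4 FPKM in LCN2 cells and 23.4, 10.6 and 22.8 FPKM in controls, with control replicate 2 far below the other libraries (adjusted p = 0.39). The second row named Atp5o, at 91684398 to 91926982 on chromosome 16, shares exons with the first and with Donson and was listed at 0 throughout. The mtDNA genes mt-Atp6, the membrane channel subunit, and mt-Atp8 overlap each other by 43 bases. mt-Atp6 had 4320, 4233 and 4182 FPKM in LCN2 libraries and 4316, 4597 and 4312 FPKM in controls, and mt-Atp8 had 3957, 3827 and 3795 FPKM in LCN2 libraries and 3909, 4013 and 3893 FPKM in controls. Neither was called (log2 fold changes 0.01 and 0.03, adjusted p = 0.83 and 0.48), and both were below 0 with values as deposited (-0.05 and -0.03).

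Summed by complex, the nuclear genes of complex II showed the lowest ratio and those of complex IV were nearly level. After scaling, nuclear complex II genes summed to 218, 230 and 205 FPKM in LCN2 libraries and to 257, 236 and 236 FPKM in controls, a log2 ratio of the means of -0.16. Nuclear genes summed to 809 ± 12.5 FPKM in LCN2 cells and 852 ± 86.7 FPKM in controls for complex III (-0.07), to 2496 ± 26.1 FPKM in LCN2 cells and 2460 ± 140 FPKM in controls for complex IV (0.02), and to 3282 ± 30.2 FPKM in LCN2 cells and 3349 ± 165 FPKM in controls for complex V (-0.03). The mtDNA genes summed to 2601 ± 75.4 FPKM in LCN2 cells and 2376 ± 14.2 FPKM in controls for complex III (0.13), 14548 ± 48.9 FPKM in LCN2 cells and 14025 ± 241 FPKM in controls for complex IV (0.05), and 8286 ± 178 FPKM in LCN2 cells and 8162 ± 58.1 FPKM in controls for complex V (0.02). With values as deposited, all of these ratios but that of mt-Cytb were below 0: -0.22, -0.13, -0.04 and -0.09 for the nuclear genes of complexes II to V, and 0.07, -0.01 and -0.04 for the mtDNA genes of complexes III to V. The 6 mtDNA members made up 79.0%, 78.4% and 78.9% of the members' summed FPKM in LCN2 libraries and 77.3%, 78.8% and 77.7% in controls, so LCN2 replicate 2 was below control replicate 2. As a share of each library's total FPKM they made up 6.40%, 6.32% and 6.29% in LCN2 libraries and 6.23%, 6.28% and 6.23% in controls. All mtDNA mRNAs, those of complex I included, made up 8.99%, 9.02% and 8.82% in LCN2 libraries. In controls they made up 9.03%, 8.99% and 8.96%, so the groups overlapped.

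**Figure D3:**
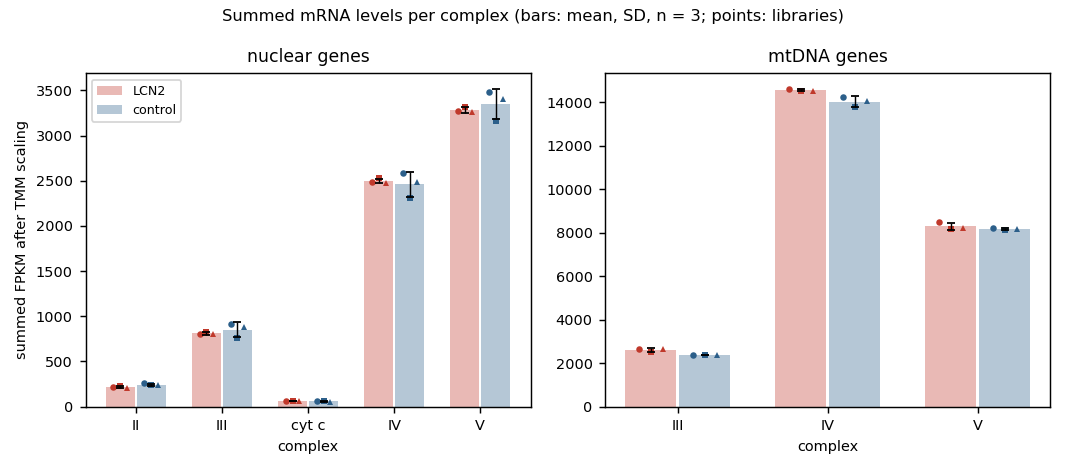
Summed FPKM after TMM scaling per complex, nuclear genes at the left and mtDNA genes at the right, with LCN2 in red left of control in blue; bars are means from 0, error bars the SD (n = 3) and points the libraries. The mtDNA sum exceeds the nuclear sum in complexes III, IV and V. For the nuclear sums of these complexes the controls spread more than the LCN2 libraries, and control replicate 2 is the lowest.

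Control replicate 2 differed from the other controls in the members with short transcripts. Among 25 tested nuclear members whose coding transcripts have a median length under 800 nucleotides, it lay below the mean of the other 2 controls in 24, with a median difference of -0.26 on the log2(scaled FPKM + 1) scale. Among 18 longer members it lay below in 12, with a median of -0.04. The same medians over all tested genes were -0.12 (495 genes under that length, 380 of them below) and 0.0040 (9779 longer genes). Of the short nuclear members 2 were called, Uqcrq and Cox7a2, and of the longer ones 5, which is 8% and 27.8%, against 10.3% of all short and 22.1% of all longer tested genes. Without control replicate 2 the calls were Uqcrq and mt-Cytb higher and Atp5g1, Cox7a2, Uqcrh, Uqcr11 and Atp5mpl lower, of which 4 were among the 8 called with all libraries, and the members' median log2 fold change was -0.04. Of all tested genes 17.4% were called without this library. The part of this library in the smaller differences was not tested further.

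**Figure D4:**
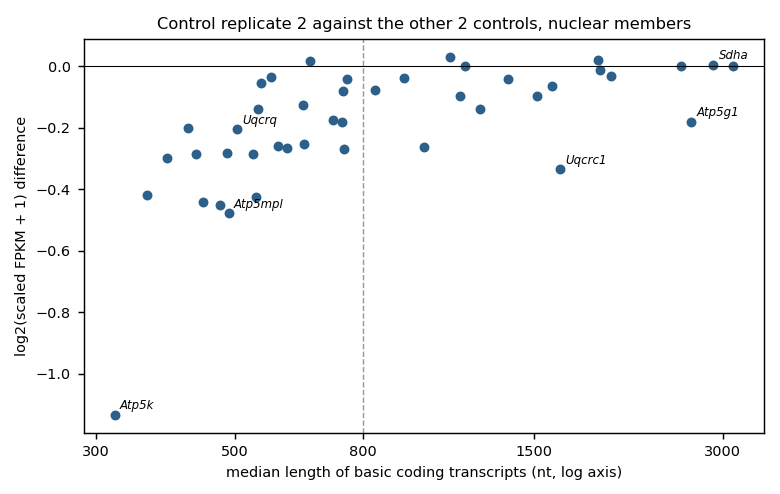
Each point is a tested nuclear member, with its median coding transcript length (horizontal log axis, nucleotides) and the difference of control replicate 2 from the mean of the other 2 controls in log2(scaled FPKM + 1). Points left of the dashed line at 800 nucleotides have a median of -0.26 and those to its right a median of -0.04, and Atp5k lies lowest.

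Genes that assemble these complexes or serve them were called in a smaller share than all tested genes, of which 21.5% were called, and regulators in a share close to it. Of 41 listed assembly factors 39 were tested, with 2 rises and 2 falls (10.3%), and their median was -0.02 (log2 fold change). The falls were in Cox15, which makes the haem A of complex IV (11.0 ± 0.889 FPKM in LCN2 cells and 14.6 ± 0.795 FPKM in controls, log2 fold change -0.31, adjusted p = 0.017), and in Coa3, which stabilises newly made mt-Co1 (18.1 ± 0.671 FPKM in LCN2 cells and 21.7 ± 0.890 FPKM in controls, -0.19, adjusted p = 0.032). The rises were in Smim20, another early complex IV assembly factor (12.9 ± 0.454 FPKM in LCN2 cells and 10.9 ± 0.779 FPKM in controls, 0.28, adjusted p = 0.022), and in Cmc1, which binds the same early intermediate (11.9 ± 0.635 FPKM in LCN2 cells and 10.1 ± 0.457 FPKM in controls, 0.27, adjusted p = 0.035). Of 6 tested carriers and channels that exchange ATP, ADP and phosphate, with the ATP synthase inhibitor Atpif1, none passed in limma. At an unadjusted p under 0.05 there were 0 higher and 2 lower, where 39.1% of all tested genes passed. Vdac1 of the outer membrane averaged 177 ± 11.0 FPKM in LCN2 cells and 206 ± 5.50 FPKM in controls (-0.16, adjusted p = 0.079), and the ADP/ATP carrier Slc25a5 162 ± 8.75 FPKM in LCN2 cells and 184 ± 5.86 FPKM in controls (-0.13, adjusted p = 0.12). The call of Cox15 held on leaving out control replicate 2 or LCN2 replicate 2 and otherwise not (adjusted p of up to 0.073). Lost were those of Coa3 and Cmc1 on leaving out any library but LCN2 replicate 2 (highest adjusted p 0.12), and that of Smim20 on leaving out control replicate 1, LCN2 replicate 1 or LCN2 replicate 3 (up to 0.075).

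Of 14 tested regulators 3 rose and 0 fell in limma (21.4%, against 21.5% of all tested genes), with 3 higher and 1 lower at an unadjusted p under 0.05, where 39.1% of all tested genes passed. Lonp1, a matrix protease that in human cells is reported to degrade the COX4I1 protein in low oxygen, had 106, 94.8 and 112 FPKM in LCN2 cells, against 71.5, 80.6 and 71.4 FPKM in controls (log2 fold change 0.54, SE 0.07, adjusted p = 0.0058), and its call held in all 6 fits that left out a library. Hif1a, the oxygen-regulated transcription factor subunit, had 90.8, 82.4 and 87.5 FPKM in LCN2 cells, against 66.8, 77.3 and 70.0 FPKM in controls (0.35, adjusted p = 0.010, and 0.053 without LCN2 replicate 1). Gabpb1, a partner of GABPA, averaged 19.7 ± 1.88 FPKM in LCN2 cells and 16.5 ± 1.85 FPKM in controls (0.30, adjusted p = 0.042) and stayed called only on leaving out control replicate 2 or LCN2 replicate 2; in the other such fits its adjusted p reached 0.13. That call was also lost with values as deposited (adjusted p = 0.089) and equal column sums (0.059), with no filter on low values (0.077) and without a variance trend (0.054). The coactivator Ppargc1a, below the filter, had between 0.769 and 0.837 FPKM in LCN2 libraries and between 0.621 and 0.888 FPKM in controls. The lower of these at an unadjusted p was Ndufa4. This gene, first described in complex I and now counted with complex IV, was on the regulators list and had 236, 251 and 232 FPKM in LCN2 cells and 293, 273 and 289 FPKM in controls, without overlap (-0.19, SE 0.06, adjusted p = 0.052), and was picked for description after its values were seen. For comparison, of 37 nuclear complex I genes 3 fell and 0 rose (8.11%), with 5 lower and 2 higher at an unadjusted p under 0.05. Of 7 mtDNA complex I genes 1 rose and 0 fell (14.3%), with 2 higher and 2 lower at an unadjusted p under 0.05. No difference between complex I and the other complexes was tested.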

How the data were processed

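RNA from 6 samples was sequenced, and the labels' protocols name an RNeasy kit and a SMARTer mRNA library kit. The authors deposited 1 table of values per gene, treated here as FPKM because no value above 0 is whole and the values times transcript length in kilobases sum to 942700 to 1000905 per library with each gene's longest coding transcript (817351 to 869194 with the median one), close to what that unit gives; no header or label states the unit, and the file name speaks of raw counts. Per the submitters' processing notes the build was GRCm38; for the aligner, quantifier and strand handling: not given in the sources used here. Read depth is unknown, so no counting intervals are given.

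Of 19832 rows the 10309 averaging at least 1 FPKM were fitted with limma 3.58.1 (R 4.3.3) on log2(FPKM + 1), with a variance trend and unweighted TMM scaling computed on these genes (trims of 0.3 and 0.05, factors 0.970 to 1.06). The scaling follows an earlier analysis of this table, and the members and gene lists were chosen with earlier results of these data known. Means ± SD are of FPKM as deposited unless called scaled. The fit was tested on simulated data. IDs were matched to GENCODE M21 (19798 of 19832). Of the 8 called members none shared exons with another annotated gene. None had a transcript of another gene at 95% identity over 50% of its longest coding transcript (BLAST 2.17.0). For Uqcrq that transcript had 1521 nucleotides, against a median of 504, and for Atp5g1 4715, against a median of 2675.5. Copies of shorter forms of these genes could be missed. By the same search mt-Co1, mt-Co2, mt-Co3 and mt-Atp6 have annotated pseudogene copies. Values per library were given for mtDNA and called members and for some other genes, Lonp1 and Hif1a among them. Of each list, up to 4 called genes or 2 uncalled genes were described, most by mean ± SD, and Ppargc1a and Ndufa4 were added. Same-numbered libraries did not deviate together in these values, and the reported fit has no replicate term. Whether they were handled together is unknown.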

Additional observations from a re-analysis of the deposited data

How the results depend on the processing

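Which of the scalings is right cannot be read from the table. Among all genes 2216 were called, 1464 with no filter on low values, and between 268 and 3160 when 1 library was left out (268 without LCN2 replicate 1, 3160 without LCN2 replicate 2). The 4 members called higher became 1 with values as deposited, 2 with equal column sums, 1 after quantile normalization, 2 with no filter, 2 with a filter at a mean of 0.1, 1 without a variance trend, and between 0 and 4 when 1 library was left out. The 4 called lower became 9 with values as deposited, 7 with equal column sums, 8 after quantile normalization, 1 without a variance trend, and between 1 and 8 when 1 library was left out. Among all tested genes 1213 were called higher and 1003 lower in the reported fit. These counts were 693 and 1680 with values as deposited, and 950 and 1308 with equal column sums. After quantile normalization they were 1109 and 1168, and without a variance trend 1069 and 870. The cause of these changes was not tested. Quantile normalization leaves mt-Co1, the top value in every library, without a difference by construction. With values as deposited the median log2 fold change of all tested genes was -0.06, against 0.0008 after TMM scaling. Signs turned for small log2 fold changes: with values as deposited in mt-Co1 (-0.010), mt-Co2 (-0.023), mt-Atp6 (-0.054), mt-Atp8 (-0.029), Cycs (-0.019) and Cox6a1 (-0.039); with equal column sums in mt-Atp6 (-0.020) and Cox6a1 (-0.0044); after quantile normalization in mt-Co2 (-0.018), mt-Co3 (-0.063) and Cox6a1 (-0.024). On leaving out 1 library mt-Atp6 ranged between -0.0046 (without LCN2 replicate 1) and 0.020 (without LCN2 replicate 2).

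With the replicate number as a block 262 genes were called (2.54% of all tested), with 1 member higher (Uqcrq) and 0 lower. Cox7a2 had an adjusted p of 0.051 in that limma fit. Deviations from the group means correlated at -0.224, -0.261 and 0.0086 in same-numbered libraries, and at -0.143 to 0.315 in differently numbered ones. With n = 3 per group these values cannot tell whether same-numbered libraries were handled together. Why calls were lost under the block was not tested.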
